A study of Mus musculus with 8 samples.

Results

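The genes described here encode the enzymes that copy DNA and the enzymes that supply its building blocks, 46 genes in all, from origin recognition to chromatin assembly. Members were taken by gene symbol, and each was represented by the probe set with the highest mean over the 8 arrays. A probe set with the member as its only symbol was found for 45 of the 46 genes, and Chaf1a was not analysed here. These 45 belong to 18193 genes with a probe set, and all 45 were among the 11387 genes kept by the filter on dim genes. Expression is given in log2 units of the deposited values, in which a difference of 1 is a doubling.

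RNA was taken from spleen cells of leukemic mice of 2 genotypes, both expressing CBFb-SMMHC, a leukemia fusion of the core-binding factor subunit CBFb with part of smooth muscle myosin. The first genotype expressed CBFb-SMMHCd179-221, a truncated form, in chimeric mice sampled 3 weeks after birth. The second expressed full-length CBFb-SMMHC, in mice sampled 2 months after ENU, a chemical mutagen. There were 4 arrays per genotype, of which animal 1 gave 1 and animal 2 gave 3. ENU was named for the full-length mice alone, so genotype, mutagen and age cannot be told apart. The sample labels call both genotypes chimeras, while the series text calls the full-length mice knock-in, and spleens of chimeras also hold cells without the fusion. The labels name the cells as leukemic spleen cells, with no lineage. The comparison asks how the truncated fusion, described in the series title as defective in high-affinity RUNX1 binding, differs from the full-length fusion in leukemic cells.

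DNA replication begins when the origin recognition complex, with Cdc6 and Cdt1, loads the MCM helicase onto DNA before S phase. Cdc7 with Dbf4, together with Cdc45, Mcm10 and the GINS complex, then turns the loaded helicase into a moving fork, where primase and the DNA polymerases copy both strands. Ribonucleotide reductase and the thymidylate enzymes supply deoxynucleotides, and many of these genes are classical targets of E2F transcription factors, so their RNA levels usually follow the fraction of cells that cycle. The mouse spleen is also a site of red cell production, whose precursors divide rapidly.

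The array labels matter for every value that follows. Arrays numbered 2 and 3 of animal 2 were nearly alike, with a Pearson correlation across all probe sets of 0.9969 in truncated and 0.9971 in full-length mice. Array 1 of animal 2 lay closer to the array of animal 1, at 0.9867 in truncated and 0.9894 in full-length mice. Its correlation with arrays 2 and 3 of its own animal was 0.9761 and 0.9759 in truncated mice, and 0.9541 and 0.9535 in full-length mice. Within each genotype the arrays numbered 1 therefore formed one set and the arrays numbered 2 and 3 another, across the animal labels. The labels were kept, animals were the replicates, and array values are given throughout in the order animal 1, then arrays 1, 2 and 3 of animal 2. Animal 1 is an array numbered 1 alone, while animal 2 is the mean of arrays 1, 2 and 3. The SDs over animals and the limma standard errors below therefore mix array set with animal, and do not measure the spread between animals alone. The medians of the 8 arrays lay between 4.71 and 4.78.

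E2F sites are the best known shared feature of the promoters of these genes. The searched motifs were TTTCCCGC, TTTCGCGC, TTTGCCGC and TTTGGCGC on both strands, in the RefSeq window of GRCm38.p6 from 250 bases before to 50 bases after each gene's start. All 45 symbols were found in RefSeq, and 39 had a window in the promoter table. Of these 39 genes, 14 (35.9%) held at least 1 match, against 2.61% of all 27025 genes with a window. The 14 were Cdc6, Cdt1, Gins3, Lig1, Mcm3, Mcm5, Mcm6, Mcm7, Orc1, Pola1, Pold1, Pold3, Pole2 and Rfc3. A match describes these letters and does not show binding.

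Windows of 4 genes whose values are given in full are printed 5′ to 3′ on the strand of the gene, with the matches in capitals. Mcm5 is shown for its pair of overlapping matches, Pola1 for its difference between genotypes, Cdc6 for its spread among full-length arrays and Orc1 as the origin recognition subunit with a match. In Mcm5 (chr8:75109259-75109558, plus strand) the matches TTTCGCGC and, on the other strand, TTTGGCGC began at positions -153 and -149 from the start. In Pola1 (chrX:93632106-93632405, minus strand) and Cdc6 (chr11:98907901-98908200, plus strand) the single match lay at -138, and in Orc1 (chr4:108579204-108579503, plus strand) at -27. Pold1 and Pole2 had their match at 39 and 10, after the start.
Mcm5: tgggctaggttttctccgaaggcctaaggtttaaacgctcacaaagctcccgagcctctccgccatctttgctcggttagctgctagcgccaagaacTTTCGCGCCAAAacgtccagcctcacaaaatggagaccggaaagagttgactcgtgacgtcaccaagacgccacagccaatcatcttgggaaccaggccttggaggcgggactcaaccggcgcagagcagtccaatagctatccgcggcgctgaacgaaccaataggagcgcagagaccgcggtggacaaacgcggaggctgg
Pola1: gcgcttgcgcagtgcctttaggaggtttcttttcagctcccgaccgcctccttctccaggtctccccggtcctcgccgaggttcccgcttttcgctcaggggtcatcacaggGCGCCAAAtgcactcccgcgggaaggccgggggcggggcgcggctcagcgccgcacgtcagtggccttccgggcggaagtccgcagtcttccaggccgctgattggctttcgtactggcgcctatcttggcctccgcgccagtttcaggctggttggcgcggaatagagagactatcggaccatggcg
Cdc6: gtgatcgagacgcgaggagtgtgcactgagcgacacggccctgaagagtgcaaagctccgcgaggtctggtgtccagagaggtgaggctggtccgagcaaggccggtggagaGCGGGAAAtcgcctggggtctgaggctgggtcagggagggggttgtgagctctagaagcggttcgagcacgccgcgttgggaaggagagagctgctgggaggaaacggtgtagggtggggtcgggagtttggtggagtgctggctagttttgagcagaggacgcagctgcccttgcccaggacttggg
Orc1: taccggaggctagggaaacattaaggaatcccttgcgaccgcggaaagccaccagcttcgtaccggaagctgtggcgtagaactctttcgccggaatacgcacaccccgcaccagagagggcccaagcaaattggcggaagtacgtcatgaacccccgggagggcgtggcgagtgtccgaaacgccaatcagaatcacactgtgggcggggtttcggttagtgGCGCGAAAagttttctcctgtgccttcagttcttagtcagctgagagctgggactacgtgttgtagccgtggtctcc

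Between the genotypes the replication genes as a whole stayed close together. Of the 45 genes, 21 had a higher and 24 a lower mean in truncated than in full-length animals, beside 48.4% of all kept genes with a higher mean. That split rested on single arrays, with 32 higher and 13 lower without the array of full-length animal 1 and 15 higher and 30 lower without that of truncated animal 1. The median difference was -0.02, against -0.01 over all 11387 genes, and the median size of a difference was 0.17, against 0.26. The median over the 45 genes was 8.61 ± 0.09 in truncated and 8.68 ± 0.36 in full-length animals (SD, n = 2 animals each).

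No replication gene passed an adjusted p of 0.05 in limma, and neither did any of the 11387 genes (percent called 0 in both directions). At an unadjusted p under 0.05, 1 member was higher, Rrm2 (background 8.82%), and 1 was lower, Orc2 (background 5.3%). Differences ran from -0.79 to 0.83, and 5 of 45 reached 0.5 in size, beside 26.3% of all genes. None of the 45 reached 1, a size that 10.2% of all genes reached. For 4 members every truncated array was above every full-length array (background 10.3%), and for 1 every truncated array was below (background 8.76%). Together that is 11.1% of the members against 19.1% of all genes, a share below the background. With 2 animals against 2, an exact permutation test of a single gene cannot go below 0.333.

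**Figure D1:**
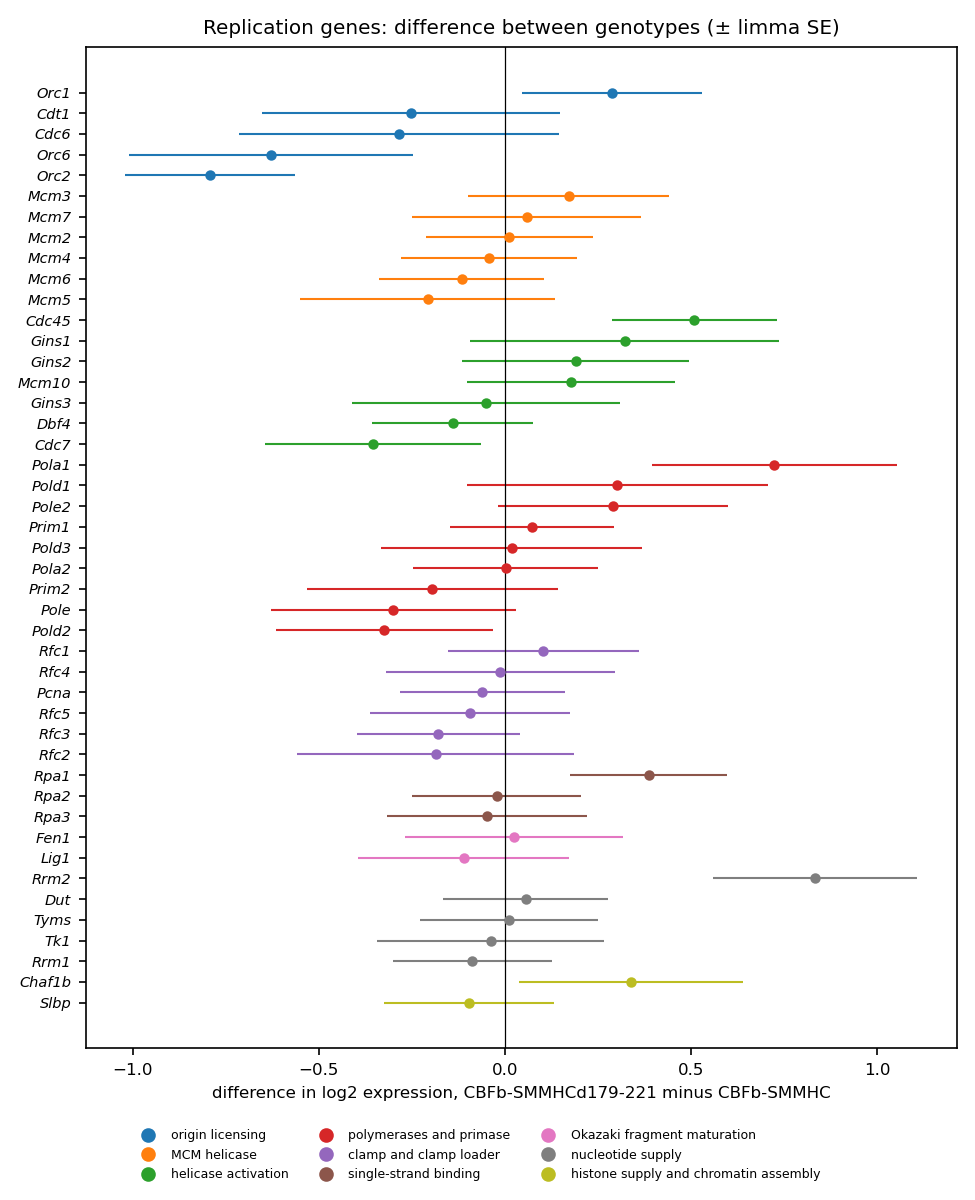
Difference in log2 expression (CBFb-SMMHCd179-221 minus CBFb-SMMHC, horizontal axis) of each of the 45 replication genes, grouped by role, with bars of ± 1 limma standard error. Differences run from -0.79 for Orc2 to 0.83 for Rrm2, and most bars cross 0.

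Rrm2, the regulated small subunit of ribonucleotide reductase, which makes deoxynucleotides for S phase, had the largest positive difference. It stood at 10.74, 10.78, 10.47 and 10.35 on truncated arrays, against 10.07, 9.99, 9.28 and 9.34 on full-length arrays. Every truncated array lay above every full-length array. The means were 10.64 ± 0.14 and 9.80 ± 0.38 (SD, n = 2 animals each), a difference of 0.83 (SE 0.27), or 1.78-fold, with an adjusted p of 0.275 in limma over all genes. The other probe sets of Rrm2 differed by 0.82 and 0.65 in the same direction, but on both of them arrays of the genotypes overlapped. With the animal and replicate number of the labels as a block on the 8 arrays, the difference was 0.92 and passed (adjusted p = 0.0208 in limma), in a fit that called 8.31% of all genes and took arrays of 1 animal as separate samples.

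The other deoxynucleotide genes had smaller differences on their chosen probe sets, and their contrast with Rrm2 was not tested. Rrm1, the large catalytic subunit of the same enzyme, had 10.07, 10.22, 9.94 and 10.05 on truncated arrays and 10.22, 10.38, 9.89 and 10.02 on full-length arrays. Its means were 10.07 ± 0.00078 in truncated and 10.16 ± 0.08 in full-length animals (SD, n = 2 each), a difference of -0.09 (adjusted p = 0.915), and its other probe set differed by 0.06. On the chosen probe sets the 2 subunits of ribonucleotide reductase lay on opposite sides of 0, but the direction of Rrm1 depended on the probe set. The difference between their differences was not tested. Tk1, the thymidine kinase of the salvage pathway, had 8.85, 8.96, 8.81 and 8.79 on truncated arrays and 9.25, 9.59, 7.99 and 8.03 on full-length arrays. All 4 truncated values of Tk1 lay between the 2 pairs of full-length values, and the means were 8.85 ± 0.0039 and 8.89 ± 0.50. Tyms, thymidylate synthase, had 5.96, 6.02, 5.999 and 5.74 on truncated arrays and 6.11, 5.87, 5.69 and 5.69 on full-length arrays, with a difference of 0.01. Dut, which hydrolyses dUTP, differed by 0.06, and by 0.73 on a dimmer probe set at 6.55 ± 0.64 in truncated and 5.81 ± 0.67 in full-length animals.

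Among genes of origin licensing, 1 was higher and 4 were lower in truncated mice, with a median difference of -0.28, which was 0.22 without the array of full-length animal 1. Orc2, a core subunit of the origin recognition complex, had the largest negative difference of all members. It stood at 7.61, 8.07, 7.77 and 7.82 on truncated arrays, against 8.51, 8.79, 8.46 and 8.46 on full-length arrays. All truncated arrays lay below all full-length arrays, and the full-length array sets differed by 0.19, less than for most members. The means were 7.75 ± 0.19 and 8.54 ± 0.04 (SD, n = 2 animals each), a difference of -0.79 (SE 0.23), with full-length 1.73-fold above truncated and an adjusted p of 0.225 in limma. The other probe sets of Orc2 differed by -0.70 and -0.73, and arrays of the genotypes overlapped on the first of these. With the same block the difference was -0.74 and passed (adjusted p = 0.0200 in limma).

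Orc6, the smallest subunit of the same complex, stood at 8.18, 7.83, 7.80 and 7.80 on truncated arrays, against 9.11, 8.84, 7.72 and 7.87 on full-length arrays. Its full-length arrays numbered 1 were above every truncated array, whereas its full-length arrays numbered 2 and 3 were not. The difference was -0.63 (adjusted p = 0.565). Orc1, its largest subunit, an ATPase, stood at 6.96, 6.61, 6.74 and 6.73 on truncated arrays, against 6.67, 6.66, 6.33 and 6.22 on full-length arrays, and differed by 0.29 (adjusted p = 0.702). Another probe set of Orc1 differed by -0.36, so its direction depended on the probe set. The remaining subunits are not members: Orc5 was at 8.04 ± 0.39 in truncated and 9.02 ± 0.27 in full-length animals (-0.98, adjusted p = 0.244), Orc4 at 7.37 ± 0.21 and 7.94 ± 0.19 (-0.57). Arrays of Orc5 and Orc4 did not overlap between genotypes, beside 19.1% of all genes without overlap. Orc3, added after its values were seen to complete the 6 subunits, was at 8.12 ± 0.03 and 7.96 ± 0.16, a difference of 0.16.

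The loading factors differed more between the array sets than between the genotypes. Cdc6, which loads the helicase together with the complex, had 8.46, 8.37, 7.86 and 7.91 on truncated arrays and 9.11, 8.62, 7.66 and 7.62 on full-length arrays. Cdt1, its partner, had 10.51, 10.05, 9.86 and 9.92 on truncated arrays and 10.95, 10.51, 9.76 and 9.76 on full-length arrays. The full-length values of both genes spanned the truncated values on either side. Their differences of -0.28 and -0.25 were below the SDs of the full-length animals, 0.81 and 0.66. The other probe set of Cdt1 differed by -0.55, with 8.85 ± 0.12 in truncated and 9.39 ± 0.37 in full-length animals.

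The 6 subunits of the MCM helicase, the ring that unwinds DNA, were split evenly, with 3 higher and 3 lower and a median difference of -0.01. Mcm2 stood at 9.37, 9.76, 9.53 and 9.54 on truncated arrays, against 9.45, 9.82, 9.35 and 9.36 on full-length arrays. Its difference was 0.01 (SE 0.22), with means of 9.49 ± 0.17 and 9.48 ± 0.04 (SD, n = 2 animals each). The direction of so small a value depended on the probe set, since another probe set gave -0.06. Mcm5 stood at 10.77, 10.59, 10.43 and 10.46 on truncated arrays, against 11.25, 10.91, 10.21 and 10.16 on full-length arrays, again with the truncated values inside the full-length range. Its difference was -0.21 (adjusted p = 0.871). Mcm3, Mcm7, Mcm4 and Mcm6 differed by 0.17, 0.06, -0.04 and -0.12.

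Genes that activate the helicase had a median difference of 0.18, with 4 higher and 3 lower. Cdc45, a part of the active helicase at the fork, stood at 7.44, 7.37, 7.33 and 7.56 on truncated arrays, against 7.04, 7.03, 6.70 and 6.71 on full-length arrays. The arrays did not overlap, and the means were 7.43 ± 0.01 and 6.92 ± 0.16 (SD, n = 2 animals each), a difference of 0.51 (SE 0.22), or 1.42-fold, with an adjusted p of 0.404 in limma. A dimmer probe set of Cdc45 differed by 0.13, with overlapping arrays.

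The GINS subunits, which join Cdc45 and the MCM ring, were less uniform. Gins1 had 8.22, 7.98, 7.79 and 7.73 on truncated arrays and 8.25, 7.70, 6.90 and 6.89 on full-length arrays, a difference of 0.32. Gins2 had 7.77, 7.66, 7.03 and 7.09 on truncated arrays and 7.57, 7.75, 6.67 and 6.80 on full-length arrays, a difference of 0.19, and -0.09 on its other probe set. Both were high on arrays numbered 1 in both genotypes. Cdc7, the kinase that triggers origins, had 7.28, 7.41, 7.15 and 7.17 on truncated arrays and 7.94, 7.71, 7.09 and 7.08 on full-length arrays, a difference of -0.35. Dbf4, the subunit that activates Cdc7, differed by -0.14 and, unlike Cdc7, was lower on full-length arrays numbered 1 (8.86 and 8.79) than on those numbered 2 and 3 (9.08 and 9.09). Mcm10 and Gins3 differed by 0.18 and -0.05.

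Polymerase and primase genes had a median difference of 0.02, with 6 higher and 3 lower. Pola1, the catalytic subunit of the polymerase that extends primers, had the second largest positive difference. It stood at 8.69, 8.68, 8.89 and 8.92 on truncated arrays, against 8.44, 8.22, 7.34 and 7.35 on full-length arrays. No arrays overlapped, but the gap between genotypes was small for arrays numbered 1 and wide for arrays numbered 2 and 3. The means were 8.76 ± 0.10 and 8.04 ± 0.57 (SD, n = 2 animals each), a difference of 0.72 (SE 0.33), or 1.65-fold, with an adjusted p of 0.424 in limma. Its partner Pola2 differed by 0.0030.

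Of the leading strand polymerase, the catalytic gene Pole stood at 8.19, 7.82, 7.91 and 7.94 on truncated arrays, against 8.72, 8.34, 7.72 and 7.80 on full-length arrays. Its accessory subunit Pole2 stood at 7.95, 7.84, 7.66 and 7.66 on truncated arrays, against 7.89, 7.62, 7.01 and 6.96 on full-length arrays. The 2 subunits differed by -0.30 and 0.29, in opposite directions. Of the lagging strand polymerase, the catalytic gene Pold1 stood at 9.11, 8.21, 8.51 and 8.43 on truncated arrays, against 8.87, 8.06, 7.97 and 8.04 on full-length arrays. Pold2 stood at 8.24, 8.23, 7.76 and 7.70 on truncated arrays, against 8.67, 8.65, 7.80 and 7.91 on full-length arrays. Their differences were 0.30 and -0.32, with adjusted p of 0.828 and 0.727 in limma. The other probe set of Pold1 differed by 0.06, and the contrasts between subunits were not tested. Pold3 differed by 0.02, by 0.04 on another probe set and, without overlap of arrays, by -0.38 on a further one. Prim2, the large primase subunit, stood at 7.63, 8.21, 8.42 and 8.13 on truncated arrays and 8.43, 8.18, 7.82 and 7.54 on full-length arrays, a difference of -0.19 that was 0.16 on another probe set.

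Of the clamp and its loader, 1 gene was higher and 5 were lower, with a median difference of -0.08. Pcna, the sliding clamp that tethers polymerases, had 11.76, 11.95, 11.77 and 11.82 on truncated arrays and 11.98, 12.20, 11.49 and 11.57 on full-length arrays. Its means of 11.80 ± 0.06 and 11.86 ± 0.16 differed by -0.06 (adjusted p = 0.944), with the truncated values inside the full-length range. Rfc2, a small subunit of the clamp loader, was the one member with a strong inverse spread. It had 9.88, 9.79, 9.44 and 9.50 on truncated arrays and 9.44, 9.42, 10.86 and 10.89 on full-length arrays, so that its full-length arrays numbered 2 and 3 were the highest. The 2 other probe sets of Rfc2 repeated this, with 5.92 and 5.49 on the full-length arrays numbered 1 and 7.21 and 7.11 on those numbered 2 and 3 for the dimmer of them. The other loader subunits did not: Rfc4 had 9.04 and 8.88 on full-length arrays numbered 1 against 8.03 and 8.04 on the others.

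Rpa1, the large subunit of the protein that coats single-stranded DNA, was higher on every truncated array. It stood at 11.14, 11.15, 11.20 and 11.15 on truncated arrays, against 10.74, 10.52, 10.90 and 10.95 on full-length arrays. The means were 11.15 ± 0.02 and 10.77 ± 0.03 (SD, n = 2 animals each), a difference of 0.39 (SE 0.21), or 1.31-fold, with an adjusted p of 0.515 in limma. The difference on the other probe set of Rpa1 was 0.35, with overlapping arrays. Rpa2 and Rpa3, the smaller subunits of the same trimer, differed by -0.02 and -0.05. A dimmer probe set of Rpa2 differed by -0.28, at 7.80 ± 0.18 in truncated and 8.08 ± 0.02 in full-length animals, without overlap of arrays.

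**Figure D2:**
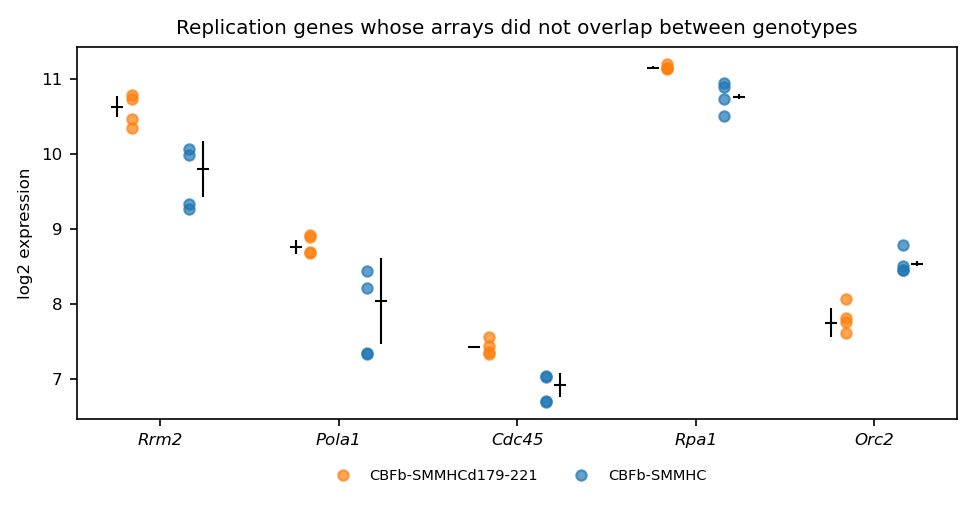
Log2 expression (vertical axis) of the 5 replication genes whose arrays did not overlap between genotypes on the chosen probe set. Each of the 4 arrays per genotype is a point, with the mean ± SD of the 2 animals in black. Truncated arrays lie above full-length arrays for Rrm2, Pola1, Cdc45 and Rpa1 and below them for Orc2. Full-length arrays split by array set, widely for Rrm2 and Pola1 and less so for Cdc45, Rpa1 and Orc2.

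Okazaki fragments are trimmed by Fen1 and joined by Lig1. Lig1 stood at 9.94, 9.96, 9.65 and 9.73 on truncated arrays, against 10.26, 10.25, 9.39 and 9.37 on full-length arrays, and its difference of -0.11 was below the SD of the full-length animals, 0.42. Fen1 differed by 0.02. Chaf1b, a subunit of the factor that places histones on new DNA, stood at 8.40, 7.75, 7.73 and 7.66 on truncated arrays, against 7.75, 7.39, 7.85 and 7.82 on full-length arrays. Its difference of 0.34 (adjusted p = 0.722) rested on 1 array, that of truncated animal 1, and was -0.0077 without it. Slbp, which binds histone mRNA, differed by -0.10, and by 0.91 on a dimmer probe set at 7.19 ± 0.28 in truncated and 6.28 ± 0.35 in full-length animals. Arrays of the genotypes did not overlap on that dimmer probe set, and its difference was larger than any on the chosen probe sets.

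The range over the 4 full-length arrays exceeded the size of the difference between genotypes for 42 of 45 members (77.9% of all genes), and that over the truncated arrays for 36 (69.3% of all genes). Both full-length arrays numbered 1 lay above both arrays numbered 2 and 3 for 35 of 45 members, against 34.3% of all genes, and below them for 4, against 36.2%. In truncated mice the same order held for 24 of 45 (background 36.7%), and the opposite order for 4 (background 27.9%). The median gap between the array sets was 0.15 in truncated and 0.55 in full-length mice, while over all genes it was 0.04 and -0.02. The gap exceeded 0.5 in size for 5 members in truncated mice (21.8% of all genes) and for 24 in full-length mice (36.4% of all genes). The range over arrays was wider in full-length than in truncated mice for 37 of the 45 genes (82.2%), against 61.6% of all genes. Arrays 2 and 3 are from 1 animal in each genotype, so these are counts over genes that share arrays, and no test was made.

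The member median showed the same split on single arrays. It was 8.67, 8.60, 8.52 and 8.51 on truncated arrays, against 8.94, 8.79, 8.23 and 8.24 on full-length arrays. The truncated arrays thus lay between the 2 pairs of full-length arrays. The widest full-length gaps were those of Tk1 (1.41), Cdc6 (1.22), Orc6 (1.18) and Gins1 (1.08), while Rfc2 stood at -1.44. All 9 polymerase and primase genes and all 5 licensing genes had the full-length arrays numbered 1 on top, with median gaps of 0.77 and 0.97. The exceptions in full-length mice were Dbf4, Rfc2, Rpa1 and Chaf1b, with the reverse order. In truncated mice they were Mcm3, Pola1, Prim1 and Rpa1.

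**Figure D3:**
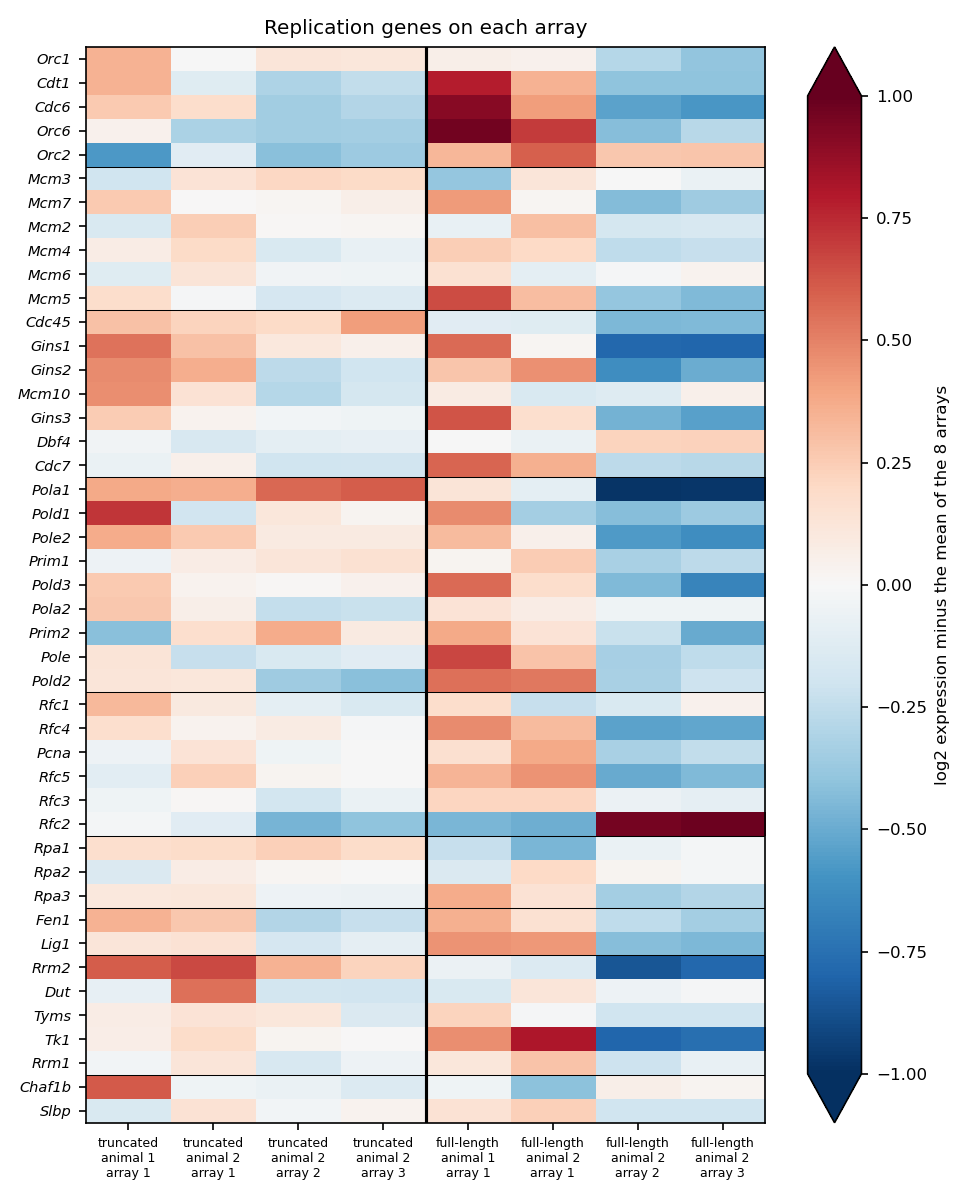
Log2 expression of the 45 replication genes on each of the 8 arrays, shown as the deviation from the gene's mean over the arrays (colour), with truncated arrays on the left, full-length arrays on the right and lines between role groups. Most genes are above their mean on the full-length arrays numbered 1 and below it on the full-length arrays numbered 2 and 3, and Rfc2 shows the reverse.

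**Figure D4:**
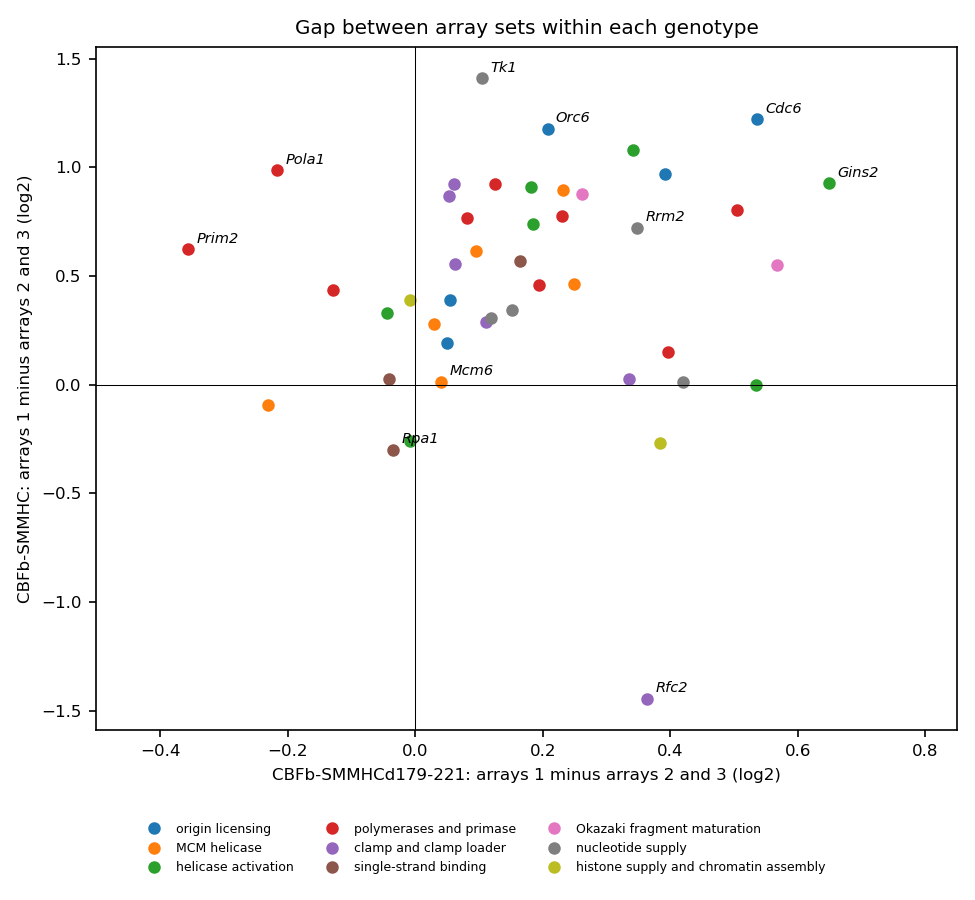
Gap between array sets, the mean of both arrays numbered 1 minus the mean of arrays numbered 2 and 3, in truncated mice (horizontal) and full-length mice (vertical), in log2 units, with 1 point per replication gene. Vertical values reach 1.41 for Tk1 and -1.44 for Rfc2, while horizontal values stay between -0.36 for Prim2 and 0.65 for Gins2.

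Some marker lists of other cells moved with the array sets, and some with the genotype. The median of 15 erythroid genes was 9.76, 9.61, 8.40 and 8.44 on truncated arrays, against 11.05, 11.43, 8.32 and 8.29 on full-length arrays, and all 15 had the full-length arrays numbered 1 on top. Their summed level ran from 13.54 to 14.23 on truncated and from 13.59 to 15.15 on full-length arrays. Of the 15 erythroid genes, 1 was higher and 14 were lower in truncated animals, with a median difference of -0.90. The median of 12 neutrophil granule genes was 11.47, 11.51, 11.72 and 11.79 on truncated arrays, against 6.05, 6.02, 10.43 and 10.43 on full-length arrays, with summed levels of 15.42 to 15.69 and 11.48 to 14.17. All 12 granule genes were lower on full-length arrays numbered 1 than on those numbered 2 and 3, the opposite of the erythroid and most replication genes. The 12 granule genes were also all higher in truncated animals, with a median difference of 3.43. All 11 macrophage genes were higher in truncated animals too (median 1.73), with summed levels of 11.84 to 12.49 on truncated and 10.24 to 10.83 on full-length arrays. The median difference was 1.24 for 4 B cell genes, 0.56 for 6 megakaryocyte genes and -0.03 for 5 T and NK cell genes, with all of the B cell and megakaryocyte genes higher. The filter kept 11 of 12 macrophage, 4 of 9 B cell, 6 of 9 megakaryocyte and 5 of 8 T and NK cell genes with a probe set. The 2 truncated animals alone could admit a gene, so these counts partly follow from the filter. Without detection calls, these values cannot show whether a marker was present or absent on an array. The lowest values of the kept markers were 4.30 for erythroid, 3.99 for granule and 3.83 for macrophage genes. They were 3.87 for B cell, 4.63 for T and NK cell and 4.26 for megakaryocyte genes. All of these lay below the level of the filter on dim genes. The part of these cells in the replication results was not tested. In bulk RNA, fewer cells of a type and less RNA per cell cannot be told apart.

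**Figure D5:**
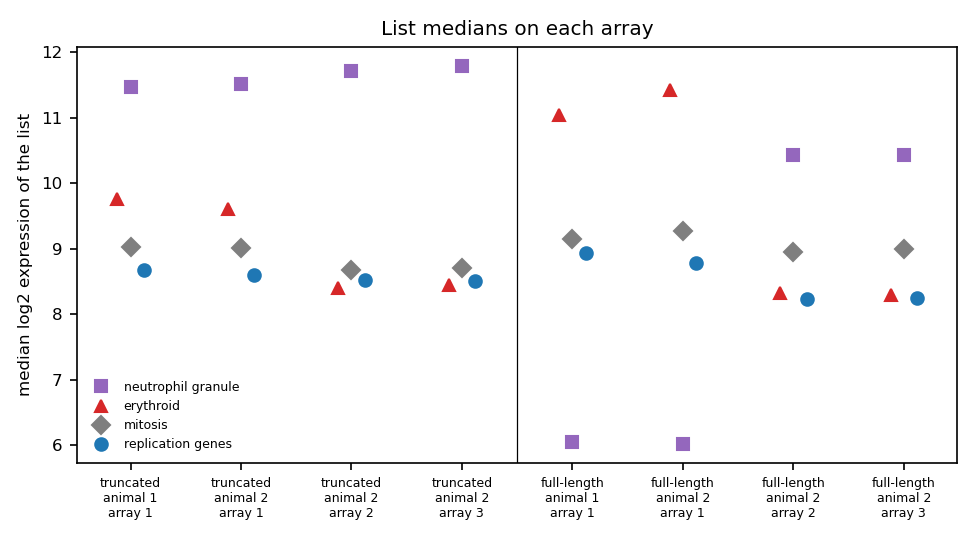
Median log2 expression (vertical axis) of the replication genes and of 3 other gene lists on each of the 8 arrays, truncated arrays on the left and full-length arrays on the right. On full-length arrays numbered 1 the erythroid median is above 11 and the granule median near 6, and the replication median is at 8.94 and 8.79, against 8.23 and 8.24 on the other full-length arrays.

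Comparing arrays of the same number gave different pictures. Among arrays numbered 1, with 1 array per animal, 17 members were higher and 28 lower in truncated mice, and 3 passed in limma: Rrm2 at 0.73 (adjusted p = 0.0133), Orc2 at -0.81 (0.0108) and Orc6 at -0.97 (0.0023). That fit called 26.9% of all genes, so 3 of 45 members is below its background. Among arrays numbered 2 and 3 of animal 2, with 1 animal per genotype and no test, 34 members were higher and 11 lower. There Pola1 differed by 1.56, Rrm2 by 1.10, Gins1 by 0.87, Tk1 by 0.79, Cdc45 by 0.75, Orc2 by -0.67 and Rfc2 by -1.40. Rrm2, Pola1, Cdc45 and Rpa1 were higher and Orc2 lower in both array sets. Arrays of these genes did not overlap between genotypes, so no choice of arrays could give another direction. Orc6 differed by 0.0043 among arrays numbered 2 and 3. Without both full-length arrays numbered 1, a choice made after the data were seen that leaves 1 full-length animal, 40 members were higher and 5 lower. That comparison kept the truncated arrays numbered 1, so its array sets were not balanced between genotypes.

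None of the lists of other pathway genes held a gene that passed an adjusted p of 0.05 in limma. Arrays did not overlap for 23.3% of other replication genes, 11.5% of other nucleotide supply genes and 0% of E2F and S-phase entry genes. The share was 23.5% for the replication stress checkpoint and 5.26% for mitosis, beside 19.1% of all genes. Of 30 other replication genes, 13 were higher and 17 lower (median -0.04). The unadjusted p was under 0.05 for 0 higher (background 8.82%) and 1 lower gene (background 5.3%). Rnaseh2c, a subunit of the enzyme that removes ribonucleotides from DNA, was at 9.57 ± 0.48 in truncated and 8.9997 ± 0.14 in full-length animals (0.57), and Ctc1, of the telomere replication complex CST, at 7.18 ± 0.39 and 6.65 ± 0.26 (0.54). The largest negative differences of that list were those of Orc5 and Orc4.

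Of 26 other nucleotide supply genes, 8 were higher and 18 lower (median -0.12). The unadjusted p was under 0.05 for 2 higher (background 8.82%) and 0 lower (background 5.3%). Ctps2, which makes CTP, was at 7.995 ± 0.18 in truncated and 6.80 ± 0.41 in full-length animals (1.20, adjusted p = 0.170 in limma), and its arrays did not overlap. Nme2, a nucleoside diphosphate kinase, was at 11.46 ± 0.22 and 10.52 ± 0.17 (0.94, adjusted p = 0.191), also without overlap. These exceed every difference among the members. Both genes were lower on full-length arrays numbered 1 than on those numbered 2 and 3, with gaps of -1.29 for Ctps2 and -0.75 for Nme2. In truncated mice these gaps were 0.20 and 0.17. On arrays numbered 2 and 3, Ctps2 was at 7.85 and 7.81 in truncated and 7.58 and 7.60 in full-length mice. There Nme2 was at 11.295 and 11.299 in truncated and 10.93 and 10.99 in full-length mice. Mthfd1, a folate enzyme, was at 9.02 ± 0.31 in truncated and 9.81 ± 1.10 in full-length animals (-0.79), and Dctd, dCMP deaminase, at 5.37 ± 0.11 and 5.997 ± 0.83 (-0.63).

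Of 22 genes of E2F and S-phase entry, 10 were higher and 12 lower (median -0.03). Ccne2, cyclin E2, differed by 0.43 and Uhrf1, which maintains DNA methylation behind the fork, by 0.36. E2f2, an activator of S-phase genes, was at 8.60 ± 0.16 in truncated and 9.41 ± 0.44 in full-length animals (-0.80, adjusted p = 0.322), with full-length arrays from 8.45 to 10.33. Myb, a transcription factor of blood progenitors, differed by -0.63.

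Of 17 genes of the replication stress checkpoint, 3 were higher and 14 lower (median -0.24). The unadjusted p was under 0.05 for 0 higher (background 8.82%) and 2 lower (background 5.3%). Rad1, a subunit of the checkpoint clamp, was at 5.98 ± 0.10 in truncated and 7.01 ± 0.08 in full-length animals (-1.03, adjusted p = 0.134), and Rmi1, of the BLM helicase complex, at 7.33 ± 0.09 and 8.20 ± 0.49 (-0.87). Neither gene's arrays overlapped between genotypes, beside 19.1% of all genes without overlap. Fanci and Chek1 differed by 0.46 and 0.15. Of 19 mitosis genes, 12 were higher and 7 lower (median 0.03), from Birc5 (0.37) and Aurka (0.26) to Bub1b (-0.34) and Ube2c (-0.58). The mitosis median was 9.02, 9.01, 8.68 and 8.70 on truncated arrays, against 9.14, 9.28, 8.95 and 9.001 on full-length arrays.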

How the data were processed

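Total RNA of leukemic spleen cells was hybridised to Affymetrix mouse arrays, per the labels. The deposited table holds values on a log2 scale for 45101 probe sets on 8 arrays. The submitters' processing notes name RMA, which subtracts background, normalizes quantiles and summarises probes. Its version and the log base are not given in the sources used here, and log2 was inferred from how far the values reach. RMA draws dim values together, so differences of dim genes are understated, and there were no detection calls. The number of arrays limits the precision.

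Gene names came from the platform annotation. Only the 34945 probe sets with a single symbol were used, which left out 932 with more than 1, 9160 unnamed ones and 64 controls. The chosen probe sets of 6 members end in s_at or x_at and can match related sequences. Of 39 other probe sets of the members above the filter, 10 differed in sign from the chosen one. Arrays were averaged per animal, and genes were tested if 2 or more of the 4 animals exceeded 4.76, the median of the whole table. The labels do not say whether arrays of an animal were separate extractions. Genotypes were compared with limma 3.58.1 (lmFit, eBayes) under R 4.3.3, with 2 residual and 3.24 prior degrees of freedom and Benjamini-Hochberg adjustment over 11387 genes. The fits were tested on simulated data. Values are mean ± SD over animals, and differences are truncated minus full-length.

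Deviations of same-numbered arrays from their group means correlated across genotypes at 0.30 for animal 1 and at 0.14, 0.23 and 0.21 for arrays 1, 2 and 3 of animal 2. Each of the first 3 truncated arrays correlated best with its own number, whereas array 3 of animal 2 did so with array 2. As all 4 values exceeded 0.1, the labels were taken as pairing the arrays. A fit with animal and replicate number together as a block of 4 levels on 8 arrays was an alternative. The mice of the 2 genotypes were different animals, and both genotypes had the same array sets. Whether the array sets alone gave these correlations was not tested, so pairing of animals was not shown. Other alternatives were animal as a random block, arrays of 1 number, another filter or none, other probe set choices, centring, an intensity trend, and leaving out arrays or animals. The members and lists were chosen with earlier results of these data known, so no list was tested. Named with a value on every array were the 10 members with the largest positive and the 10 with the largest negative difference, and Mcm2, Mcm5, Pcna, Pola1, Lig1, Rrm1, Rrm2, Tyms and Tk1 in any case. Of each pathway list, the 2 genes with the largest difference in each direction were named.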

Additional observations from a re-analysis of the deposited data

Results flagged for a closer look

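Dixon's criterion (critical value 0.829) was applied to 54 sets of 4 arrays of 1 genotype, 1 per named gene or member median. In 3 sets an array stood apart. Chance alone gives about 1 in 20 where the 4 values are independent. Here animal 2 gave 3 of the 4 arrays, so that rate need not hold. Each array that stood apart was the only array of animal 1. Chaf1b was at 8.40 on the array of truncated animal 1, with the other truncated arrays between 7.66 and 7.75. Orc6 was at 8.18 on that same array, with the others between 7.80 and 7.83. Pold1 was at 8.87 on the array of full-length animal 1, with the other full-length arrays between 7.97 and 8.06.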

How the results depend on the processing

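Of 26 named members, 5 kept their direction under every alternative run: Rrm2, Pola1, Cdc45, Rpa1 and Orc2. These 5 were the members whose arrays did not overlap between genotypes on the chosen probe set. Leaving out arrays or animals, arrays of 1 number and the blocks could therefore not reverse them. With 2 animals per genotype, 1 residual degree of freedom remained where an animal was left out, and the lone animal was then assumed to vary like the others. No member passed without 1 array or 1 animal, under another filter, probe set choice, centring or trend, or with animal as a random block (block correlation 0.31). The random block called 264 genes higher and 81 lower in truncated mice, and Tk1 differed by 0.0698 in it. The replicate block, of animal and replicate number, called 590 genes higher and 356 lower, and 1 member higher and 1 lower, Rrm2 (0.92) and Orc2 (-0.74). Under it Prim2 differed by 0.11, Pcna by 0.0163 and Tk1 by 0.14, and it changed no other member's call. The replicate 1 array of each animal gave 1678 genes higher and 1401 lower, with 1 member higher, Rrm2 (0.73), and 2 lower, Orc2 (-0.81) and Orc6 (-0.97). There Rfc2 differed by 0.41, Mcm2 by -0.0673 and Tyms by -0.00034. With the mean of all probe sets of a gene, the chromatin assembly median was 0.27, Orc1 differed by -0.0376 and Mcm2 by -0.0248. Centring each array on its median gave -0.0285 for Mcm2 and -0.0288 for Tyms. These causes were not tested.

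Leaving out 1 array or animal gave between 0 and 441 genes higher and between 0 and 179 lower, the most without full-length animal 2. Without array 2 or 3 of that animal alone, 289 or 376 genes were higher. The member median ran from -0.20 to 0.19, the licensing median from -0.77 to 0.22, the single-strand binding median from -0.0437 to 0.22 and the MCM median from -0.21 to 0.0607. Differences ran from -0.68 to 0.0830 for Pole, -0.86 to 0.29 for Cdc6, -0.72 to 0.22 for Cdt1, -0.62 to 0.21 for Mcm5, -0.51 to 0.12 for Prim2, -0.11 to 0.13 for Mcm2, -0.17 to 0.0513 for Pcna, -0.41 to 0.19 for Lig1 and -0.39 to 0.32 for Tk1. They ran from -0.17 to 0.19 for Tyms, -0.0077 to 0.68 for Chaf1b, -0.12 to 0.73 for Pold1, -0.0633 to 0.44 for Gins2, -0.22 to 0.87 for Gins1, -0.0556 to 0.64 for Pole2 and -0.66 to 0.29 for Rfc2. The positive values of Pole, Cdc6, Cdt1 and Mcm5 came without the array of full-length animal 1, and for Cdt1 also without truncated animal 2 (0.03). The negative values of Gins1 and Pole2 came without full-length animal 2.

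These alternatives were chosen after seeing the data, and the first kept the truncated arrays numbered 1, so its array sets were not balanced. Without both full-length arrays numbered 1, the member median was 0.27, with 0.47 for licensing, 0.21 for MCM, 0.63 for helicase activation, 0.33 for polymerases, 0.23 for the clamp, 0.22 for single-strand binding and 0.45 for Okazaki genes. Differences then were 0.20 for Orc6, 0.18 for Cdc7, 0.22 for Pold2, 0.27 for Pole, 0.61 for Cdc6, 0.47 for Cdt1, 0.45 for Mcm5, 0.26 for Prim2, 0.27 for Pcna, 0.48 for Lig1, 0.11 for Rrm1 and 0.85 for Tk1. Arrays numbered 2 and 3 of animal 2 gave medians of 0.21 for MCM, 0.46 for polymerases and 0.25 for single-strand binding. Differences were -0.14 for Chaf1b, 0.0043 for Orc6, 0.0750 for Cdc7, 0.16 for Pole, 0.24 for Cdc6, 0.13 for Cdt1, 0.26 for Mcm5, 0.60 for Prim2, 0.26 for Pcna, 0.31 for Lig1, 0.0366 for Rrm1 and 0.79 for Tk1.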
